A study of Mus musculus with 20 samples.

Results

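The genes described here are 9 transcription factors known from the stem cells of the hair follicle: Sox9, Lhx2, Nfatc1, Tbx1, Tcf7l1, Tcf7l2, Foxc1, Runx1 and Vdr. They were taken by gene name from a table of 53380 genes, and all 9 passed the filter on low values (a normalized count of at least 10 in at least 3 libraries). The table holds bulk RNA-seq of dorsal epidermal cells from adult mice, sorted by FACS into 5 populations and sequenced as 20 libraries. The study asked how a keratinocyte population with high surface Thy1 differs from its neighbours, and the 9 factors show how far each population carries the regulators of the follicle stem cell.

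The populations were hair follicle stem cells (HFSCs; integrin-α6+, CD34+ and ScaI-; 4 libraries), Thy1hi keratinocytes (integrin-α6+ and ScaI+; 4 libraries), Thy1- keratinocytes of the same gate (4 libraries), Thy1hi cells that also carried YFP (Thy1hiYFP+; 3 libraries) and dendritic epidermal T cells (DETCs; integrin-α6-, Thy1+ and ScaI-; 5 libraries). ScaI, usually written Sca1, is the surface antigen encoded by Ly6a. The labels give every sample the genotype Thy1.2CreERT2-Rosa26-EYFP and no treatment, while the study's text gives wild-type mice for the populations without YFP. In that line an inducible Cre is driven from the Thy1.2 promoter, and the study's text describes tamoxifen to induce it. YFP thus marks cells in which that promoter had been active and recombination took place. By that text, genotype and tamoxifen go together with the YFP label. The cell type label of the Thy1hiYFP+ libraries reads ScaI-, against their titles. The series design gives mice of 8 weeks, while the sample labels run from 8 to 27 weeks, and mice were pooled, with no number given per library in the labels. P-values therefore measure the spread between libraries, which may not be that between mice. The design also states 2 batches and the extraction text names more than 1 library kit, but no label says which library belongs to which, so no value could be given within a batch.

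Quiescent stem cells sit in the bulge of the hair follicle through telogen, its resting phase, and rebuild the lower follicle when a new growth phase begins. Sox9 and Lhx2 keep the identity of these cells, Nfatc1, Foxc1 and Tbx1 are tied to their quiescence and self-renewal, and Tcf7l1 and Tcf7l2 bind DNA at the end of the WNT pathway. Runx1 is tied to the start of follicle growth, and the vitamin D receptor Vdr is needed for the hair cycle to go on.

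Libraries held 7781256 to 12982393 reads on genes, and the value of a factor rested on at least 6 reads (Lhx2 in Thy1hi 1). The HFSC markers Cd34, Lgr5, Krt15, Krt24, Gli1 and Postn were all detected in the HFSC libraries and summed to 41251 to 66551 normalized counts, against 2199 to 36119 elsewhere. T cell markers summed to 19486 to 40345 in DETCs and to at most 429.4 in the other populations. DETC libraries also held basal keratinocyte markers at a sum of 9979 to 46198, which was 171421 to 228834 in Thy1hi cells. Suprabasal keratinocyte markers summed to 21607 to 44998 in HFSCs, 8041 to 24764 in Thy1hi and 24632 to 37327 in Thy1- cells. Their sum was 14802 to 53596 in Thy1hiYFP+ cells and 3356 to 24121 in DETCs. The median Langerhans cell marker sum was highest in HFSCs, at 2511 against 675 to 1799 elsewhere. The part of other cells in the HFSC levels was not tested. Library HFSC 4 stood apart, with 13.1% of its reads on the ribosomal RNA gene Rn45s against 38.3% to 41.5% in the other HFSC libraries, a Langerhans cell marker sum of 60.3 against 2009.6 to 4262.9, and a basal keratinocyte marker sum of 48658 against 104726 to 114678. The 2 DETC libraries whose column number matches no label are called a and b here. Rn45s shares were also low in Thy1- 3 (18.6%), Thy1hi 3 (20.6%) and DETC a (21.6%), each the lowest of its population.

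All 9 factors were detected in every library, and 8 of them had their highest mean in HFSCs. Vdr had its highest mean in Thy1- cells. Per kilobase of exon, which allows a comparison between genes, Sox9 was the most abundant of the 9 in HFSCs at 806.9 ± 367 normalized counts per kb (SD, n = 4). Vdr followed at 266.2 ± 48.8, Lhx2 at 224.4 ± 36.3, Nfatc1 at 216.4 ± 31.8 and Tbx1 at 190.7 ± 67.2 on the same scale. Foxc1 at 120.9 ± 31.7, Tcf7l2 at 64.4 ± 8.15, and Runx1 at 53.7 ± 9.63 were lower, and Tcf7l1 was last in each of the 5 populations, at 42.5 in HFSCs. In Thy1hi cells Vdr led at 199.3 ± 12.3 normalized counts per kb and Sox9 was next at 172.6 ± 23.1, while Lhx2 at 10.1 ± 7.33 and Tbx1 at 8.43 ± 3.67 had moved to the seventh and the eighth place.

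**Figure D1:**
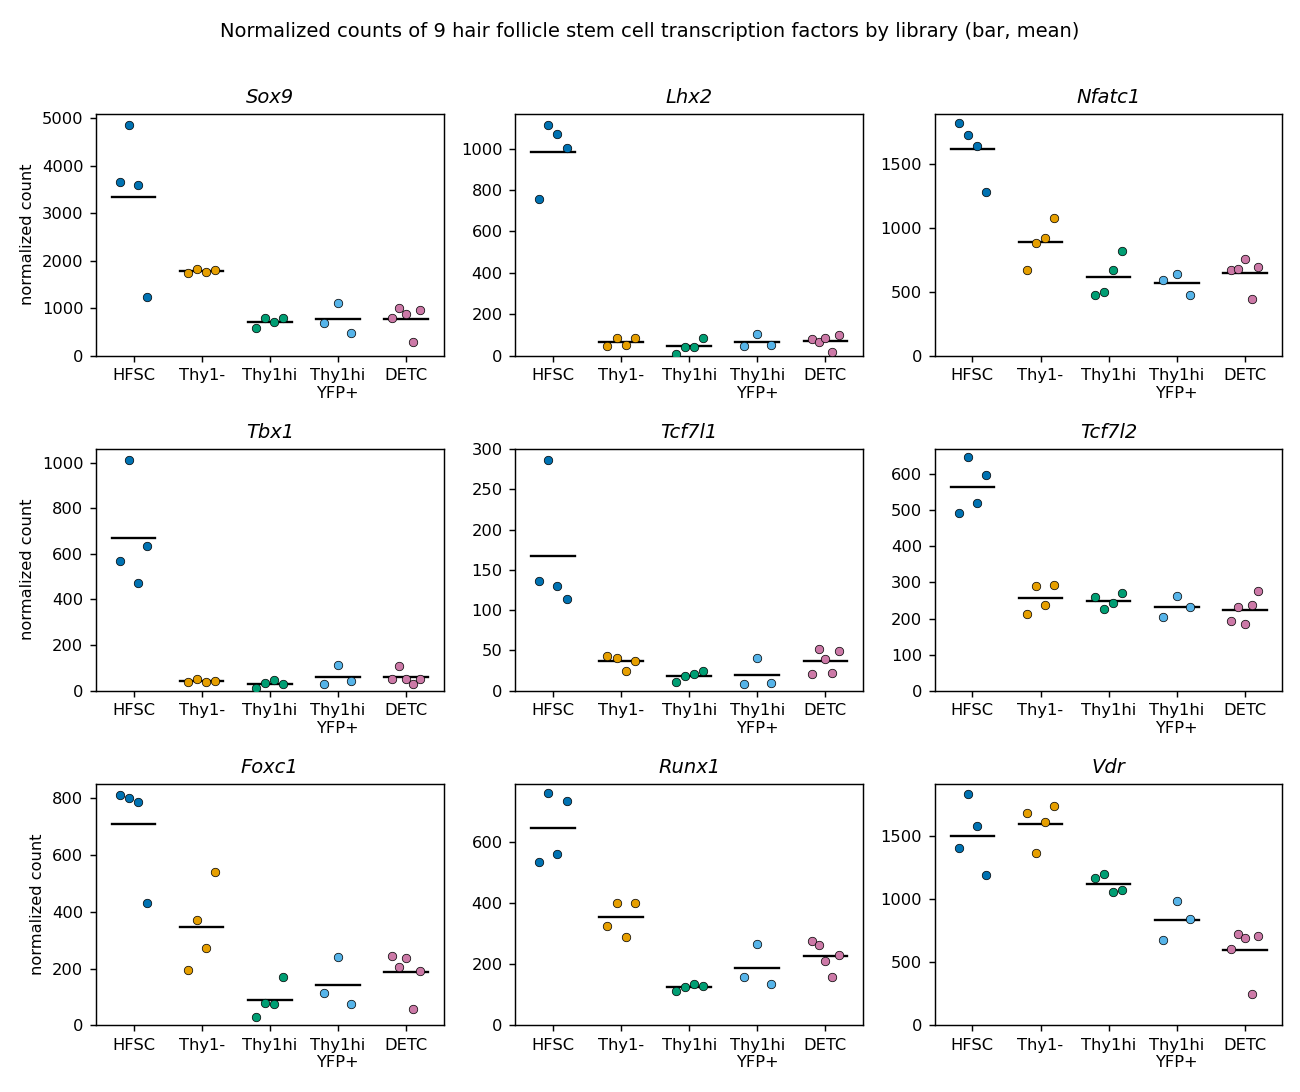
Normalized counts (linear axis from 0) of the 9 factors in each of the 20 libraries, with 1 point per library and a bar at the mean of each population. Lhx2 and Tbx1 were near the floor outside HFSCs, while Sox9, Nfatc1, Foxc1 and Runx1 held intermediate levels in Thy1- cells and Vdr stood as high there as in HFSCs.

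Sox9 (mm10, chromosome 11, 112782224 to 112787760, plus strand) encodes the factor that specifies and maintains the bulge lineage. Its normalized counts were 3664, 4861, 3587 and 1235 in HFSC libraries 1 to 4 and 1733, 1823, 1765 and 1798 in Thy1- libraries. Thy1hi libraries had 579.6, 782.4, 710.5 and 781.9, and Thy1hiYFP+ libraries 693.8, 1112 and 486.5. DETC libraries ranged from 277.1 in library a to 1006, with a median of 876.7. HFSC libraries 1 to 3 lay far above all others, and HFSC 4 lay below every Thy1- library but above every library of the remaining populations.

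Sox9 was higher in HFSCs than in Thy1hi cells by 2.07 ± 0.38 on the log2 scale (SE; adjusted p = 0.000961). Against Thy1- cells the difference was 0.74 ± 0.38 with an adjusted p of 0.24 and a 95% interval of -0.05 to 1.54. Without HFSC 4 it was 1.17, and the adjusted p was then 0.0433. The spread of Sox9 among Thy1- libraries was small, with a coefficient of variation of 2.21%, against 45.5% in HFSCs.

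Lhx2 (chromosome 2, 38339281 to 38369733, plus strand) encodes a LIM homeobox factor that holds bulge cells in their undifferentiated state. Its normalized counts were 757.2, 1113, 1072 and 1001 in HFSCs, 46.2, 85.6, 53.6 and 83.6 in Thy1- cells and 6.62, 42.2, 43.9 and 85.4 in Thy1hi cells. The Thy1hiYFP+ libraries had 46.9, 104.5 and 51.5, and DETC libraries ranged from 16.5 to 98.5 with a median of 79.3. Every HFSC library lay far above every library of the other populations, which overlapped among themselves. Thy1- cells held 6.82% of the HFSC mean, Thy1hi cells 4.51%, Thy1hiYFP+ cells 6.86% and DETCs 6.94%.

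The log2 differences of Lhx2 in HFSCs were 4.86 ± 0.57 from Thy1hi cells (adjusted p = 8.87e-06) and 3.89 ± 0.57 from Thy1- cells (adjusted p = 0.000276), or 29.1-fold and 14.8-fold. The first rests in part on library Thy1hi 1 with its 6 reads, and was 4.15 or 17.7-fold without it. They were 3.93 ± 0.62 from Thy1hiYFP+ cells and 4.03 ± 0.54 from DETCs. Below HFSCs, the order of fitted means was Thy1-, Thy1hiYFP+, DETC and Thy1hi, and no neighbours in it differed past the threshold.

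Nfatc1 (chromosome 18, 80606205 to 80713071, minus strand) encodes a calcineurin-regulated factor of stem cell quiescence. Normalized counts were 1821, 1725, 1641 and 1277 in HFSCs, 666.4, 879.3, 922.9 and 1076 in Thy1- cells and 472.5, 496.6, 668.2 and 819.8 in Thy1hi cells. Thy1hiYFP+ libraries had 590.1, 641.7 and 475.6, and DETC libraries 445.9 to 757.4 with a median of 679.3. HFSC libraries lay above all others, and Thy1- and Thy1hi libraries overlapped. This is the 1 gene of the 9 whose value in library Thy1- 4 depends on the row order of the deposited column, which reads 193.4 as deposited and 1076 once put back.

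Nfatc1 was higher in HFSCs by 1.42 ± 0.21 (log2) than in Thy1hi cells (adjusted p = 7.83e-05). It was higher by 0.87 ± 0.21 than in Thy1- cells (adjusted p = 0.0135), a 1.83-fold difference that was lost without Thy1- 1, at an adjusted p of 0.0688. Unlike Lhx2, Nfatc1 kept 35.2% to 54.8% of its HFSC mean in the other populations.

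Foxc1 (chromosome 13, 31806633 to 31812476, plus strand) encodes a forkhead factor that returns follicle stem cells to quiescence. Its normalized counts were 811.5, 800.4, 785.8 and 429.5 in HFSCs, 195.8, 371.4, 271.4 and 540.2 in Thy1- cells and 29.8, 79.0, 74.8 and 170.7 in Thy1hi cells. Thy1hiYFP+ libraries had 112.6, 241.5 and 76.3, and DETC libraries 56.3 to 242.7 with a median of 204.4. HFSC 4 fell below Thy1- 4, so these populations overlapped, whereas every Thy1hi library lay below every Thy1- library.

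Foxc1 was higher in HFSCs than in Thy1hi cells by 3.19 ± 0.49 on the log2 scale, or 9.1-fold (adjusted p = 0.000163). Its difference from Thy1- cells was 1.09 ± 0.49 with an adjusted p of 0.188. From Thy1hi to Thy1- cells its 4.28-fold step was the largest among the 9 genes, and it is taken up with the same-numbered libraries.

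Tbx1 (chromosome 16, 18581713 to 18586969, minus strand) encodes a T-box factor needed for bulge cells to renew over repeated cycles. Its normalized counts were 567.9, 1011, 471.4 and 632.7 in HFSCs, 35.3, 52.1, 35.5 and 41.8 in Thy1- cells and 13.3, 31.6, 44.7 and 29.1 in Thy1hi cells. Thy1hiYFP+ libraries had 27.9, 113.8 and 40.6, and DETC libraries 27.4 to 108.8 with a median of 50.4. The lowest HFSC library lay far above 113.8, the highest value of any other population.

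Tbx1 was 22.8-fold higher in HFSCs than in Thy1hi cells (log2 4.51 ± 0.43, adjusted p = 7.71e-07) and 15.5-fold higher than in Thy1- cells (log2 3.95 ± 0.43, adjusted p = 8.76e-06). Over the 20 libraries Tbx1 and Lhx2 had the highest correlation of any pair of the 9 genes, with r = 0.945, and Tbx1 and Vdr the lowest, with r = 0.361. These are correlations of log2 values across libraries of 5 populations, so they mostly describe differences between populations that the libraries share.

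Tcf7l1 (chromosome 6, 72626378 to 72789254, minus strand) and Tcf7l2 (chromosome 19, 55741810 to 55933654, plus strand) encode the WNT effectors TCF3 and TCF4, which repress or activate target genes according to the presence of β-catenin. Tcf7l1 normalized counts were 136.2, 286.7, 130.4 and 113.5 in HFSCs, 42.6, 40.5, 24.4 and 36.9 in Thy1- cells and 11.0, 18.4, 20.3 and 24.3 in Thy1hi cells. Tcf7l2 normalized counts were 492.9, 648.4, 520.6 and 599.8 in HFSCs, 211.6, 289.3, 236.6 and 294.3 in Thy1- cells and 259.4, 226.6, 243.1 and 270.7 in Thy1hi cells. For both genes all HFSC libraries lay above all other libraries.

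Tcf7l1 was 9.74-fold higher in HFSCs than in Thy1hiYFP+ cells (15.8-fold without Thy1hiYFP+ 2), 8.29-fold higher than in Thy1hi cells (log2 3.05 ± 0.45, adjusted p = 8.96e-05) and 4.3-fold higher than in Thy1- cells (log2 2.10 ± 0.45, adjusted p = 0.00711). Tcf7l2 was 2.25-fold higher in HFSCs than in Thy1hi cells (log2 1.17 ± 0.16, adjusted p = 6.08e-05) and 2.19-fold higher than in Thy1- cells (log2 1.13 ± 0.16, adjusted p = 0.000247). Outside HFSCs, Tcf7l2 stood at 39.7% to 45.6% of its HFSC mean in all 4 populations, with no pair of neighbours in the order past the threshold. DETC means were 36.5 ± 14.7 for Tcf7l1 and 224.6 ± 37.2 for Tcf7l2 (SD, n = 5), and Thy1hiYFP+ means were 19.6 ± 18.5 and 232.5 ± 29.9 (SD, n = 3).

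Runx1 (chromosome 16, 92601466 to 92826149, minus strand) encodes a factor of early follicle growth that also acts in blood and T cell development. Its normalized counts were 532.1, 757.0, 560.2 and 732.9 in HFSCs, 324.7, 399.2, 288.7 and 400.9 in Thy1- cells and 112.6, 126.5, 135.8 and 130 in Thy1hi cells. Thy1hiYFP+ libraries had 156.5, 265.5 and 135.7, and DETC libraries 159.2 to 274.0 with a median of 229.4. HFSC, Thy1- and Thy1hi libraries formed 3 ranges that did not overlap.

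Runx1 was 5.03-fold higher in HFSCs than in Thy1hi cells (log2 2.33 ± 0.21, adjusted p = 5.28e-07) and 1.82-fold higher than in Thy1- cells (log2 0.86 ± 0.21, adjusted p = 0.0181). The second of these was lost without Thy1- 1, without Thy1- 3 and after rescaling to the same total, at adjusted p-values of 0.0636, 0.0734 and 0.0624. In the order of means HFSC, Thy1-, DETC, Thy1hiYFP+ and Thy1hi, the first 2 steps passed the threshold and the others did not.

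Vdr (chromosome 15, 97854425 to 97910630, minus strand) was the member whose pattern departed most from the rest. Vdr normalized counts were 1404, 1840, 1583 and 1190 in HFSCs, 1683, 1368, 1615 and 1742 in Thy1- cells and 1166, 1203, 1061 and 1074 in Thy1hi cells. Thy1hiYFP+ libraries had 680.8, 988.5 and 842.2, and DETC libraries 252.5 to 722.0 with a median of 693.3. HFSC and Thy1- libraries covered nearly the same range, and no Thy1hi library reached the lowest Thy1- library.

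Vdr in HFSCs differed from Thy1- cells by -0.10 ± 0.25 on the log2 scale (adjusted p = 0.828), with a 95% interval of -0.63 to 0.42. The difference from Thy1hi cells was 0.40 ± 0.25 (adjusted p = 0.308, 95% interval -0.12 to 0.93). It was higher in HFSCs than in DETCs by 1.41 ± 0.24 (adjusted p = 8.73e-05). Against Thy1hiYFP+ cells it was higher by 0.84 ± 0.27 at an adjusted p of 0.0489, and 11 of 19 alternatives lost that call.

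Counted over the 9 genes, HFSCs exceeded Thy1hi cells in 8 (all but Vdr), where 6.86% of the 17204 genes tested were called higher in HFSCs. They exceeded Thy1- cells in 6 (Lhx2, Nfatc1, Tbx1, Tcf7l1, Tcf7l2 and Runx1), against a background of 3.52%. Without HFSC 4 this count was 7, with Sox9 added, and without Thy1- 1 it was 4, with Nfatc1 and Runx1 lost. HFSCs exceeded Thy1hiYFP+ cells in 9 (background 6.33%) and DETCs in 9 (background 18.5%). The median log2 difference of the 9 was 2.33 from Thy1hi, 1.09 from Thy1-, 2.05 from Thy1hiYFP+ and 2.03 from DETCs, beside medians over all genes tested of -0.02, -0.04, -0.01 and -0.02. The 4 comparisons share the HFSC libraries.

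Libraries did not overlap for 8 of the 9 genes between HFSCs and Thy1hi cells, where 9.81% of all genes tested lay wholly above in HFSCs. The same held for 6 against Thy1- cells (background 7.42%), 9 against Thy1hiYFP+ cells (10.9%) and 9 against DETCs (13.8%). For single genes in 4 against 4 libraries the exact two-sided permutation test cannot go below 0.0286, which each of the genes that did not overlap reached. In bulk samples fewer cells of a type and less RNA per cell cannot be told apart.

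**Figure D2:**
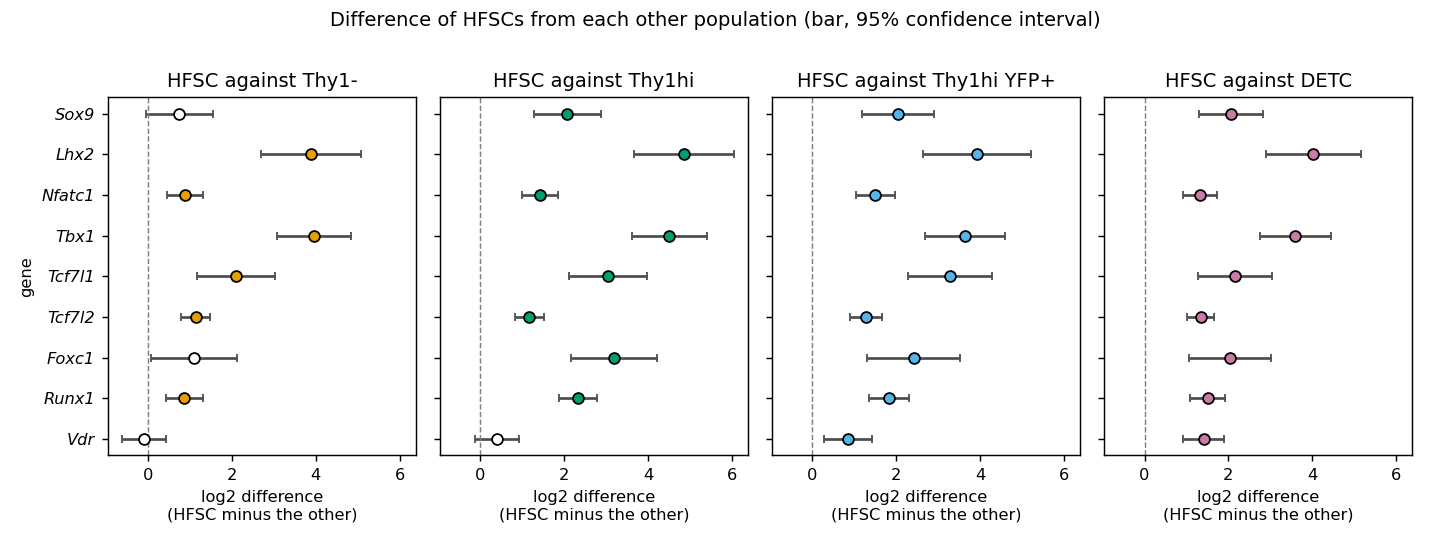
Log2 difference of each factor between HFSCs and each of the other 4 populations (x axis, HFSC minus the other), with 95% confidence intervals from limma and open circles where the adjusted p was not under 0.05. Lhx2 and Tbx1 were the farthest to the right against Thy1- cells (3.89 and 3.95), where Sox9, Foxc1 and Vdr were not called.

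**Figure D3:**
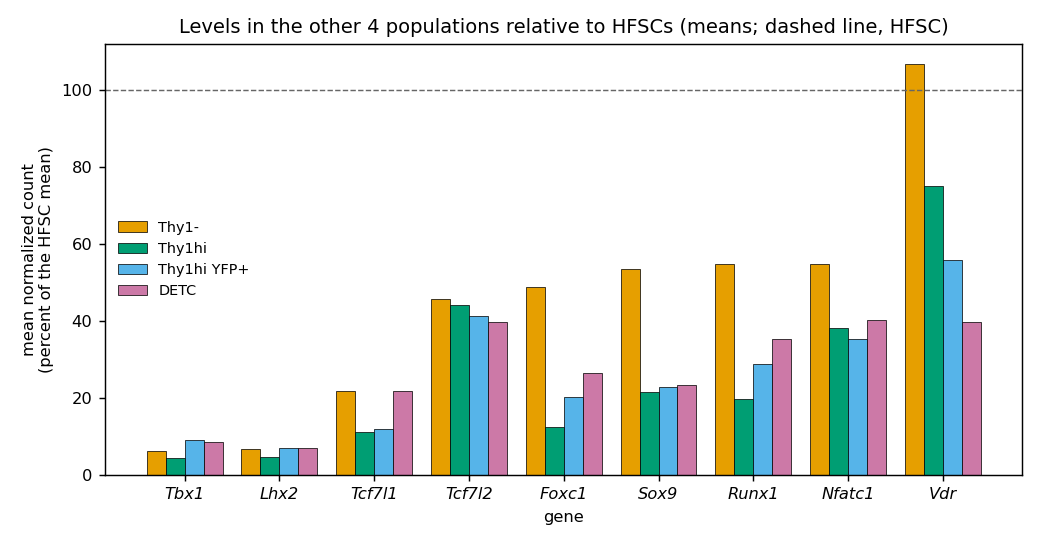
Mean normalized count of each factor in the other 4 populations as a percent of its HFSC mean (bars from 0, genes ordered by the Thy1- value, dashed line at the HFSC level). Tbx1 and Lhx2 were at 4.42% to 9.06% in all 4 populations, whereas 5 genes were at 48.8% to 107% in Thy1- cells.

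Within the ScaI+ keratinocytes, all 9 factors had a lower fitted mean in Thy1hi than in Thy1- cells, with a median log2 difference of -0.95 beside -0.02 over all genes tested. In the limma fit of all populations with no replicate block 1 gene was called, Runx1, lower in Thy1hi cells with a log2 difference of -1.47 ± 0.21 or 2.77-fold (adjusted p = 0.00414), where 0.221% of genes tested were called lower in Thy1hi cells. Without a block, DESeq2 also called Sox9 (adjusted p = 0.0296) and Foxc1 (adjusted p = 0.00535), a limma fit of only the 2 populations also called Sox9 (adjusted p = 0.00249), and quantile normalization also called Foxc1 (adjusted p = 0.0496). Over all 17204 genes tested these fits called 210, 95 and 61 in either direction. Libraries did not overlap for 5 genes, Sox9, Tcf7l1, Foxc1, Runx1 and Vdr, all lower in Thy1hi cells (background 3.17%).

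Libraries of both populations that carry the same replicate number deviated together, with correlations of 0.293 to 0.716. Other combinations had -0.651 to 0.514, so the ranges overlapped. The labels do not say whether equal numbers share mice or a sort. With the number as a block, 5 of the 9 genes were called lower in Thy1hi cells, where 3.19% of all genes were called lower: Sox9 (-1.33 ± 0.10, adjusted p = 0.000147), Foxc1 (-2.10 ± 0.18, adjusted p = 0.000232), Runx1 (-1.47 ± 0.14, adjusted p = 0.000417), Nfatc1 (-0.54 ± 0.11, adjusted p = 0.0138) and Vdr (-0.50 ± 0.11, adjusted p = 0.0218). Tcf7l1 (-0.95 ± 0.32, adjusted p = 0.123), Lhx2 (-0.97 ± 0.38, adjusted p = 0.182), Tbx1 (-0.56 ± 0.30, adjusted p = 0.34) and Tcf7l2 (-0.04 ± 0.13, adjusted p = 0.918) were not called.

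Pair by pair, the log2 difference of Foxc1 ran from -2.68 to -1.66, that of Runx1 from -1.65 to -1.08 and that of Sox9 from -1.58 to -1.20. Nfatc1 ran from -0.82 to -0.39 and Vdr from -0.70 to -0.19. Tcf7l1 was also lower in 4 of 4 pairs, from -1.86 to -0.26. Lhx2 and Tbx1 were lower in 3 of 4 pairs, and Tcf7l2 in 2 of 4. In the unblocked fit the difference of Lhx2 was -0.26 without Thy1hi 1 and was not called.

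Library Thy1hi 1 had the lowest Thy1hi value of 7 of the 9 genes. Marker sums moved with this comparison: basal keratinocyte markers summed to 171421 to 228834 in Thy1hi and 75501 to 121798 in Thy1- libraries, suprabasal keratinocyte markers to 8041 to 24764 and 24632 to 37327, and HFSC markers to 16944 to 36119 and 12580 to 33164. Fibroblast and dermal papilla markers summed to 186.1 to 1946 in Thy1hi and 123.0 to 215.3 in Thy1- libraries, Langerhans cell markers to 432.8 to 1082 and 840.8 to 1703, and melanocyte markers to 35.3 to 83.4 and 56.01 to 114.8. Basal keratinocyte and fibroblast sums were higher in Thy1hi in 4 of 4 pairs, and suprabasal, Langerhans cell and melanocyte sums were lower in 4 of 4. HFSC sums were higher in 3 of 4, but most of that sum was Krt15 (12668 to 35169 in Thy1hi and 10910 to 31533 in Thy1-). Single HFSC markers were split. Lgr5 and Gli1 were lower in Thy1hi in 4 of 4 pairs and Cd34 in 3 of 4. Krt15 and Krt24 were higher in 3 of 4, and Postn went either way. The defining HFSC markers Cd34 and Lgr5 were at or below 102.5 and 51.3 normalized counts in these 8 libraries, against at least 1599.8 and 443.1 in HFSCs. The part of other cells in these differences was not tested.

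**Figure D4:**
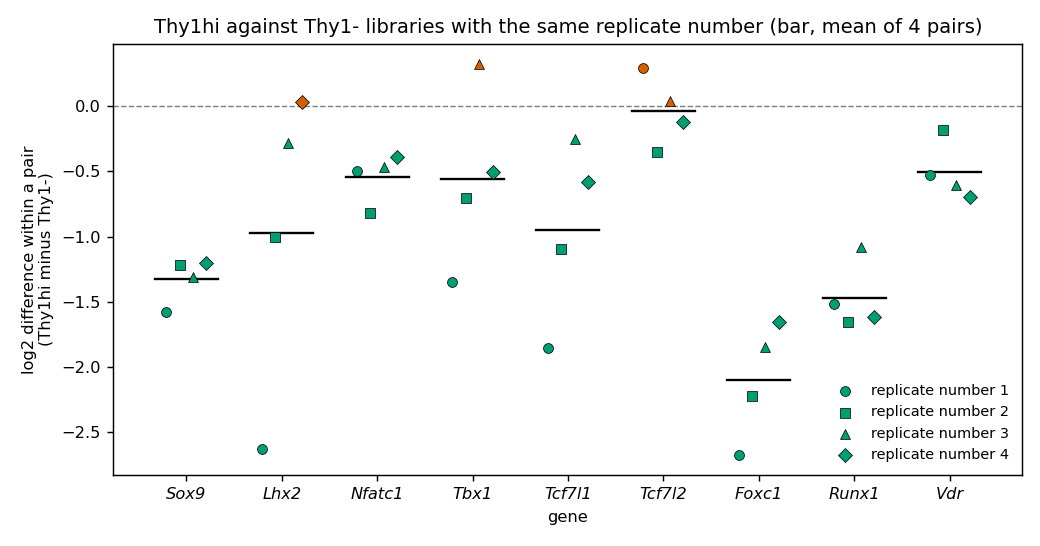
Log2 difference within pairs of equal replicate number (y axis, Thy1hi minus Thy1-) for each factor, with 1 symbol per pair and a bar at the mean of 4 pairs. All 4 pairs were below 0 for Sox9, Nfatc1, Tcf7l1, Foxc1, Runx1 and Vdr, while Tcf7l2 was spread about 0 from -0.35 to 0.29.

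Between Thy1hiYFP+ and Thy1hi cells 0 of the 9 genes were called by limma, edgeR or DESeq2, where limma called 0.0116% of all genes. At an unadjusted p under 0.05, limma named 1 (Runx1, 0.50 ± 0.23 on the log2 scale) and edgeR and DESeq2 named 2 each. Over all 17204 genes tested, 1561 were under that p with limma, 1634 with edgeR and 1890 with DESeq2. The fitted differences of the 9 genes ran from -0.44 (Vdr) to 0.93 (Lhx2) with a median of 0.03. The value of Lhx2 was 0.22 without library Thy1hi 1, and that of Tcf7l1 moved from -0.23 to -0.93 without Thy1hiYFP+ 2, with no call in either. Only Vdr did not overlap, with every Thy1hiYFP+ library below every Thy1hi library (background 5.55%). Library Thy1hiYFP+ 2 had the highest value of its population for 9 of the 9 genes. Suprabasal keratinocyte markers summed to 14802 to 53596 in Thy1hiYFP+ and 8041 to 24764 in Thy1hi libraries. Fibroblast and dermal papilla sums were 44.6 to 217.5 and 186.1 to 1946, and basal keratinocyte sums 148532 to 257724 and 171421 to 228834. The part of other cells in these values was not tested. By the study's text these 2 populations also differ in genotype and tamoxifen, which cannot be told apart from the YFP label.

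DETCs, which are no keratinocytes, nevertheless held reads of all 9 genes. Against Thy1hi cells, Runx1 was higher in DETCs by 0.82 ± 0.20 (log2, adjusted p = 0.00277), where 19.9% of all genes were called higher. Vdr was lower, with a log2 difference of -1.01 ± 0.24 (adjusted p = 0.00212, 2.01-fold), where 16.6% were called lower. Neither gene overlapped, against 18.8% and 14.4% of all genes. Against Thy1- cells, 3 genes were lower in DETCs: Sox9 (log2 -1.32 ± 0.36, adjusted p = 0.00745), Runx1 (-0.65 ± 0.20, adjusted p = 0.0168) and Vdr (-1.51 ± 0.24, adjusted p = 4.86e-05), with 15.2% of all genes called lower. The same 3 did not overlap, against 12.7% of all genes.

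Library DETC a had the lowest DETC value of 7 of the 9 genes and also the lowest sum of basal keratinocyte markers (9979 against 33606 to 46198 in the other DETC libraries) and the highest sum of T cell markers (40345 against 19486 to 27390). Without it, Foxc1 and Tbx1 were also called higher in DETCs than in Thy1hi cells, by 1.54 (adjusted p = 0.00721) and 1.15 (adjusted p = 0.0332). The part of keratinocyte RNA in the DETC levels was not tested.

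For each factor, the genes with the most similar pattern were sought among 9799 genes with a mean of at least 50, by Pearson's r of log2 values over the 20 libraries, which again share their population differences. Sox9 was closest to Fst (r = 0.943), the secreted inhibitor of activins, followed by Selenop and Igfbp4. Fst means were 1245 in HFSCs, 1045 in Thy1- and 245.8 in Thy1hi cells. Runx1 was closest to the adhesion molecule Alcam (0.948), Enpp1 and Ptprk, and Foxc1 to Atp13a2 (0.966), Slit3 and Cyp1b1.

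Lhx2 was closest to Adcy1 (r = 0.978), an adenylyl cyclase, then to Sema3e and BC034090, and Tbx1 to Sdk2 (0.971), Shisa2 and Tgm5. Adcy1 averaged 1233 in HFSCs and 59.5 to 102.6 elsewhere. Nfatc1 followed the WNT receptor gene Fzd7 (0.972), Cspg4 and Ism1, and Tcf7l2 followed Bnc2 (0.934), Samd5 and Ism1. Tcf7l1 was closest to Nrep (0.944), Setbp1 and the WNT coreceptor gene Lrp6. Vdr was closest to the glypican gene Gpc4 (0.954), Pawr and Gcnt2, and Gpc4 averaged 536.3 in Thy1-, 468.2 in HFSC and 178.2 in DETC libraries.

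Of 51 relatives of the 9 factors from the same families, 38 were tested, and against Thy1- cells 3 were higher in HFSCs (Sox13 by 1.55, Nr3c1 by 0.86 and Foxp1 by 0.77 on the log2 scale), with a list median of -0.15, where 3.52% of all genes were called higher and 2.56% lower. Against Thy1hi cells the same 3 were higher and 2 were lower, Sox6 (-2.10) and Sox15 (-2.61), beside 6.86% and 6.51% of all genes. Against DETCs 6 were higher in HFSCs and 11 lower, beside 18.5% and 21.2% of all genes. Sox6, which encodes a SOX factor without an activation domain, averaged 1149.8 ± 164 normalized counts in Thy1hi (SD, n = 4), 573.4 ± 110 in Thy1- and 267.5 ± 28.5 in HFSC libraries, the opposite order to Sox9.

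Between Thy1hi and Thy1- cells, 0 of 38 relatives were called by limma, with 7 at an unadjusted p under 0.05, 0 called by edgeR and 3 by DESeq2. Over all 17204 genes tested, limma called 58 and had 1242 under that p, edgeR called 44 and DESeq2 210. With the replicate block 5 relatives were called, beside 3.42% of all genes called higher and 3.19% lower in Thy1hi cells, with Sox6 (adjusted p = 0.000783) and Sox15 (0.0158) higher in Thy1hi cells and Sox7 (0.00169), Runx2 (0.0119) and Nfatc2 (0.0252) lower. In DETCs against Thy1hi cells 12 relatives were higher and 8 lower, beside 19.9% and 16.6% of all genes. Several of the 12 are known T cell factors: Runx3 averaged 2934 in DETCs and 22.9 to 62.3 elsewhere, Tcf7 (TCF1) 1601 and 59.1 to 78.4, and Runx2 1146 and 22.5 to 78.0.

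Of 36 partners and cofactors, 34 were tested. Against Thy1- cells the calcineurin regulator Rcan3 (1.16) and the LIM-only gene Lmo4 (0.77) were higher in HFSCs, and the kinase gene Hipk2 (-0.55) was lower. That was 2 higher and 1 lower of 34, beside 3.52% of all genes tested called higher and 2.56% lower. Cbfb, the partner of RUNX proteins, averaged 361.6 to 393.7 in the 4 keratinocyte populations, and the LIM cofactor gene Ldb1 730.0 to 917.3. Neither was called between HFSCs and Thy1hi or Thy1- cells. Ctnnb1, which encodes β-catenin, averaged 1843 to 2177 there and was not called either. Hr, the corepressor of Vdr, averaged 3487 in HFSCs, 2936 in Thy1- cells and 2153 in Thy1hi cells, with an adjusted p of 0.650 and 0.145 for HFSCs against the latter populations.

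The corepressor gene Tle1 had means of 307.8 ± 79.6 in HFSC, 281.1 ± 52.6 in Thy1- and 136.4 ± 18.1 in Thy1hi libraries. It was higher in HFSCs than in Thy1hi cells (1.14, adjusted p = 0.00417) and lower in Thy1hi than in Thy1- cells with the block (adjusted p = 0.00169). Without the block 0 of 34 partners were called in Thy1hi against Thy1- cells by limma, with 3 at an unadjusted p under 0.05, 0 called by edgeR and 1 by DESeq2. Over all 17204 genes tested these numbers were 58, 1242, 44 and 210.

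Of 21 genes tied to a member as targets, 18 were tested. Against Thy1- cells 5 were higher in HFSCs: the WNT target genes Lgr5 (3.83) and Nkd1 (2.57), the Foxc1-linked signals Fgf18 (2.91) and Bmp6 (1.95), and the NFAT-linked receptor gene Prlr (1.16). Over all genes tested, 3.52% were called higher in HFSCs in this comparison. Lgr5 is also among the HFSC markers used to check the sort. The general WNT target Axin2 averaged 322.1 to 390.3 in the keratinocyte populations, with no call among HFSC, Thy1hi and Thy1- cells, and was 2.41 higher on the log2 scale in DETCs than in Thy1hi cells. Cyp24a1, the classical target of the vitamin D receptor, was under the filter, with population means of at most 2.27 normalized counts. Between Thy1hi and Thy1- cells 0 of 18 were called by limma, with 3 at an unadjusted p under 0.05, 0 called by edgeR and 1 by DESeq2. Over all 17204 genes tested these numbers were 58, 1242, 44 and 210. With the block Inhbb, an activin subunit gene, was lower in Thy1hi cells (-1.40, adjusted p = 0.00343).

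**Figure D5:**
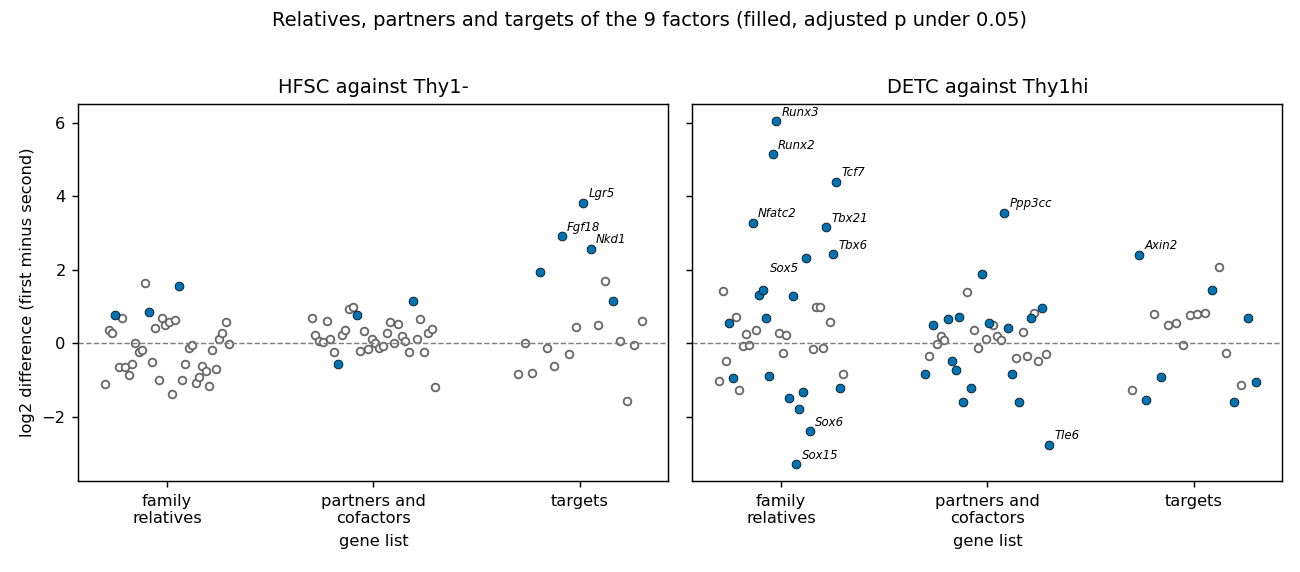
Log2 differences (y axis, first population minus second) of the tested relatives, partners and targets in HFSC against Thy1- (left) and DETC against Thy1hi (right), with 1 point per gene, filled where the adjusted p was under 0.05. On the left, 3 of 38 relatives, 3 of 34 partners and 5 of 18 targets were called. There 3.52% of all genes tested were called higher in HFSCs and 2.56% lower. On the right the T cell factors Runx3, Runx2 and Tcf7 stood highest.

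Promoter windows from RefSeq (GRCm38.p6, 250 bases before to 50 after a start site) were matched for 7 of the 9 genes, in 11 windows. No window was matched for Sox9 or Nfatc1. The windows were searched on both strands for CTTTGAA and CTTTGAT (TCF and LEF proteins), TGTGGT (RUNX), ACAATGG and ACAAAGG (SOX), GGAAAA (NFAT) and TAATTA (LIM homeobox). Foxc1, which had the widest step between Thy1- and Thy1hi cells, held TGTGGT at 188 and GGAAAA at 60 bases before its start, and a further GGAAAA on the opposite strand at 4 after it. The first windows of Lhx2 and Tbx1, the pair with the highest correlation, held none of the 7 motifs. The bases before the annotated transcripts are shown 5′ to 3′ on the gene's strand, with motif matches in capitals, for Foxc1 at chr13:31806396-31806632 (plus), Lhx2 at chr2:38339031-38339280 (plus) and Tbx1 at chr16:18588900-18589149 (minus). The stretch of Tbx1 lies upstream of that gene as placed in the deposited table, where its highest coordinate is 18586969.
Foxc1: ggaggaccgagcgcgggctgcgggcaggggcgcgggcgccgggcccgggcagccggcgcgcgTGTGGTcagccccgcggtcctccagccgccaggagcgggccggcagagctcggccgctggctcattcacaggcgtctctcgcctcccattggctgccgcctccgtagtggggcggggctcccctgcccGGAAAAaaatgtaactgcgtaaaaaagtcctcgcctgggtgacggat
Lhx2: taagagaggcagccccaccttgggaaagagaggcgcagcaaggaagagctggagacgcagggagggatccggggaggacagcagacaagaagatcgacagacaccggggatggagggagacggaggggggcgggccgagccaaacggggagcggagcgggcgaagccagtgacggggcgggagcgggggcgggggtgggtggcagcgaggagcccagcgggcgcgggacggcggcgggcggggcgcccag
Tbx1: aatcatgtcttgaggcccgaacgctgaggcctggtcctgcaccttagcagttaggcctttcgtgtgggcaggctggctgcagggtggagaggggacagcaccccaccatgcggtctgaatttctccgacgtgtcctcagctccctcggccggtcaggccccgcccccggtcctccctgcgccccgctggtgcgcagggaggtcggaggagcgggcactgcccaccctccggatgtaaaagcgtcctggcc

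TGTGGT occurs in 16.8% of the 32851 windows of the table and GGAAAA in 23.4%, so a match is a description and no evidence of binding. The other matches to TGTGGT were in the upstream window of Runx1, on the opposite strand, at 28 and 36 bases after the start. GGAAAA also lay on the opposite strand of the second Lhx2 window, 139 bases before that start. CTTTGAA is held by 5.14% of windows, CTTTGAT by 3.73%, ACAATGG by 3.66%, ACAAAGG by 5.88% and TAATTA by 5.29%, and none of these was in a window of the 7 genes. The first Lhx2 window was 74.7% G and C, that of Foxc1 67.3% and that of Tbx1 69%, beside a median of 52.7% over all windows.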

How the data were processed

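RNA-seq of 20 libraries from 5 sorted epidermal populations was analysed from the deposited signal, a table of normalized counts. The authors used STAR for alignment to mm10 and featureCounts for counting per Ensembl gene, and DESeq2 size factors for normalization (the versions of STAR and featureCounts and the use of strand are not given in the sources used here). Whole reads were recovered for 100% of values, within 0.01 normalized counts. The column of Thy1- 4 follows another order of gene names, which places 3212 genes elsewhere, and was put back. The 9 genes and all lists were chosen with earlier results of these data known.

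The 17204 genes that reached 10 normalized counts in 3 or more libraries were fitted with limma on log2(value + 1) computed from the deposited normalized counts, with 1 mean per population, all 20 libraries and no covariate. Tests were two-sided, with Benjamini-Hochberg adjustment over all genes tested and a threshold of 0.05. Fold changes are on the log2(value + 1) scale and understate the change of low genes. Errors beside log2 differences are standard errors, and those beside means are SDs. Named genes were the 9 members, the 3 genes most similar to each, called list genes with the largest differences, at most 3 each way, and direct relatives or partners. Calls of Thy1hi against Thy1- and all other list genes given by name were otherwise chosen after their values were seen.

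Same-numbered libraries were compared by the correlation of their deviations from population means. For Thy1hi with Thy1-, r in 4 pairs was 0.293 to 0.716 (other combinations -0.651 to 0.514). For HFSC with DETC it was 0.170 to 0.333 in 3 pairs (other combinations -0.250 to 0.371). In each of the other 8 pairs of populations the lowest same-numbered r was at most 0.0129. Levels per kb used exon lengths of GENCODE M21, whose positions equal those of the table for 7 of the 9 genes (not Tbx1 and Tcf7l2). Exons of other genes overlap 4.56% of the exon bases of Tcf7l1 and 0.881% of those of Runx1, on the opposite strand, and these genes had at most 8.51 and 2.43 normalized counts.

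Alternatives were pseudocounts of 0.1 and 10, quantile normalization, rescaled totals, omission of the filter, a stricter filter on the mean (50), DESeq2 and edgeR fitted to recovered reads, fits of 2 populations alone, the deposited row order, a replicate block, and libraries left out. Block fits that held DETCs left out DETC a and b, whose numbers match no label. The block with only HFSC and DETC was added after seeing the data. Scripts were tested on simulated data. Tools were R 4.3.3, limma 3.58.1, edgeR 4.0.16, DESeq2 1.42.0, Python 3.11.15, numpy 2.4.6, pandas 2.3.3, scipy 1.17.1 and matplotlib 3.10.9. Reads and alignments were not processed again.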

Additional observations from a re-analysis of the deposited data

Results flagged for a closer look

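In 5 of the 36 groups of 4 or 5 libraries examined, 1 library lay far from the others. Chance gives such a gap in about 1 in 20 independent groups. The groups here are different genes in the same libraries, so their count cannot be set against that rate. In DETCs the library was a each time: Nfatc1 had 445.9 normalized counts there against 668.3 to 757.4 in the others, Foxc1 56.25 against 192.2 to 242.7, and Vdr 252.5 against 603.7 to 722. In HFSCs, library 4 had 429.5 for Foxc1 against 785.8 to 811.5, and library 2 had 286.7 for Tcf7l1 against 113.5 to 136.2.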

How the results depend on the processing

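Of 979 values of named members under alternatives, 946 kept their direction and side of the threshold, 15 lost a call, 12 gained one and 6 changed sign without a call in either fit. The sign changes were Vdr in HFSC against Thy1- (0.00946 with quantile normalization, and -0.206 to 0.00336 with each library left out, above 0 without HFSC 4), Nfatc1 in Thy1hi against Thy1- (0.0735 in the deposited row order) and Tcf7l2 there (-0.125 to 0.0326 with each library left out, above 0 without Thy1hi 2, Thy1- 2 or Thy1- 4). The count of 8 members in HFSC against Thy1hi and of 9 in HFSC against DETC held under every alternative. In Thy1hi against Thy1- the count of 1 was 3 with DESeq2, 2 with only the 2 populations and 2 with quantile normalization. With the replicate block over all populations it was 3, and with the block and only these 2 populations 5. In DETC against Thy1hi the count of 2 was 5 with the replicate block over all populations. That fit also left out DETC a and b, so the block and the missing libraries were not separated. The block with only HFSC and DETC, also without DETC a and b, kept all 9 calls.

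With each library left out in turn the counts ranged from 8 to 8 (HFSC against Thy1hi), 4 to 7 (Thy1-), 8 to 9 (Thy1hiYFP+) and 9 to 9 (DETC), from 1 to 2 in Thy1hi against Thy1- (2 without Thy1hi 4, with Foxc1 added), from 0 to 0 in Thy1hiYFP+ against Thy1hi and from 2 to 4 in DETC against Thy1hi (4 without DETC a). The number of genes called over the whole table in Thy1hi against Thy1- was 58, 44 with edgeR, 210 with DESeq2 and 1137 with the block. It was 13 to 38 with 1 library of either population left out: 14 without Thy1hi 1, Thy1hi 3 or Thy1- 2, 13 without Thy1- 3, 21 without Thy1- 4, 31 without Thy1hi 2, and 38 without Thy1hi 4 or Thy1- 1. With 3 to 5 libraries a population, differences of low genes such as Tcf7l1 in Thy1hiYFP+ cells, at 7.97 to 41.0 normalized counts, rest on few reads.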
